A study of Mus musculus with 6 samples.

Results

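The mRNAs of the microRNA (miRNA) machinery were examined in whole brains of wild-type C57BL/6 mouse embryos at E15.5 (E, embryonic day), in 3 female and 3 male samples. The machinery was taken as 10 genes, in 2 groups. Drosha, Dgcr8, Xpo5 and Dicer1 make the miRNA, and the effectors Ago1, Ago2, Ago3, Ago4, Tnrc6a and Tnrc6b carry out silencing. The genes were chosen by function, and their RefSeq transcript IDs were found by gene symbol. The tables held 23485 IDs in all, and 10 of them belonged to 9 of the 10 genes, with 1 ID per gene except for Tnrc6b, which had 2. No ID matched Drosha, so it was not analysed here. Each sample pooled the RNA of several embryos, and sex was assigned from the gonads by the presence of testicular cords. Nothing was treated or deleted in either group. The labels do not say whether pools shared a litter, so p-values measure the spread between these samples. In bulk RNA, fewer cells of a type and less RNA per cell cannot be told apart.

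A miRNA begins as a hairpin in a longer transcript. In the nucleus, Drosha and its RNA-binding partner Dgcr8 cut the hairpin free, and Xpo5 exports it to the cytoplasm. There Dicer1 trims it to a short duplex, 1 strand of which is loaded into an Argonaute protein. The Argonaute pairs with target mRNAs through the seed, a short stretch near the 5' end of the miRNA, and recruits a Tnrc6 (GW182) scaffold that brings in the deadenylases and decapping factors. In the developing brain this pathway is known for its part in progenitor division and neuron differentiation.

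Some members are themselves tied to miRNAs in sequence, and the seed families concerned are shown first. Let-7 and the miR-103/107 family are known regulators of Dicer1. Their mature sequences, taken from RefSeq (GRCm38), are given 5' to 3' with the seed, bases 2 to 8, in capitals.
let-7a-5p: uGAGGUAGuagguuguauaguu
miR-103-3p: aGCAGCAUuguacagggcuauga
miR-107-3p: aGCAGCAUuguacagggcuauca
The last 2 share their seed, so 1 search served both. The reverse complement of the let-7 seed, CTACCTC, was searched on the sense strand of the longest annotated transcript of each gene. Dicer1 held 4 of these matches, all in its coding sequence. They are shown because no other member held more than 2, with the match in capitals and named by its first base in the transcript.
Dicer1 base 2884: gcctactgtgttCTACCTCttaa
Dicer1 base 3890: ctgtacaaccaaCTACCTCatat
Dicer1 base 3998: acgctaacacatCTACCTCagat
Dicer1 base 5370: tgcgattttggaCTACCTCataa
Xpo5 and Ago3 held 2 let-7 matches each and Ago2 held 1. In all, 4 of the 10 members held a match, against 19.1% of 22611 genes and 37.4% of the 4974 genes with a transcript of at least 4 kb. The match to the miR-103/107 seed, ATGCTGC, lay in 7 members, against 26.1% of all genes and 48.0% of those with long transcripts. Dicer1 held 1 in its coding sequence and 1 in its 3' UTR.
Dicer1 base 3644: tagtccctgaacATGCTGCacat
Dicer1 base 7417: atgcttcatgtaATGCTGCactt
These matches are descriptions of letters, and no miRNA level was analysed here.

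Dgcr8 carries a miRNA inside its own mRNA. The Mir1306 hairpin lay on the same strand, at chr16:18284332-18284410 in NCBIM37 (mm9, the build of the files), within exon 3 of the longest Dgcr8 transcript. The annotation places another miRNA gene, AC084822.2, on the same strand in this exon, and AC125540.1 on the same strand in exon 23 of Tnrc6b. The mature products of Mir1306 are shown with their seeds in capitals, since a read from its stretch could come from the hairpin or the mRNA.
miR-1306-5p: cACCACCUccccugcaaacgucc
miR-1306-3p: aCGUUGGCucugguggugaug

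All annotated positions below are in NCBIM37. Sequencing gave 4908565 to 10294443 counts per sample. The limit that a count of 0 allows, 3 counts, equalled 0.291 to 0.611 CPM (counts scaled by the library total) and covers counting error only. Male 1 had both the highest total and the largest number of IDs at 0, 6743 against 4120 to 6280 in the other samples. Markers of neurons summed to 2895 to 4113 CPM and those of neural progenitors to 993 to 1220 CPM, so brain RNA was present in every sample. Markers of other tissues were also high. Those of meninges and fibroblasts summed to 17468 to 25762 CPM, above the neuron markers in every sample. Those of skeletal muscle summed to 3484 to 4276 CPM, a range overlapping that of neurons, and surface epithelium had 780 to 1538 CPM. Smaller sums came from choroid plexus (450 to 740 CPM), endothelium (523 to 660 CPM), microglia (154 to 211 CPM) and erythroid cells (87.6 to 240 CPM). Among their defining markers, Krt14, Kcne2 and Alas2 averaged under 10 counts, but these genes have 2 or 3 curated RefSeq transcripts, and IDs of such genes were low in general. The sums of the sexes overlapped for 7 of the 10 lists fixed, and the 3 that did not are set beside the members' results below.

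The 10 IDs ranged widely in level. Apart from the limit above, which uses unscaled totals, CPM values use TMM-scaled totals, and means are given ± SD with n = 3 per sex. Levels of different genes were compared per kb of the longest annotated transcript. Ago2 stood highest in females at 65.9 ± 7.74 CPM per kb, followed by Xpo5 at 56.9 ± 2.12, Dicer1 at 49.2 ± 3.93, Tnrc6a at 33.8 ± 3.01 and Dgcr8 at 26.6 ± 3.06 CPM per kb. The annotated 3' UTR of Xpo5 is short, and a longer one in these brains would lower its value. Far below came Ago4 with 9.67 ± 0.978 and Ago3 with 6.51 ± 0.828 CPM per kb. No neighbours in this order overlapped among the 3 female samples. In males Xpo5 (57.0 ± 3.89 CPM per kb) stood above Ago2 (50.3 ± 7.76), but their samples overlapped, as did those of Tnrc6a (28.5 ± 5.23) and Dgcr8 (24.9 ± 3.74). Dicer1 lay between these pairs at 38.6 ± 3.26 CPM per kb, and Ago4 and Ago3 again came last of the well-counted members, at 9.01 ± 0.599 and 4.82 ± 1.21 CPM per kb.

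**Figure D1:**
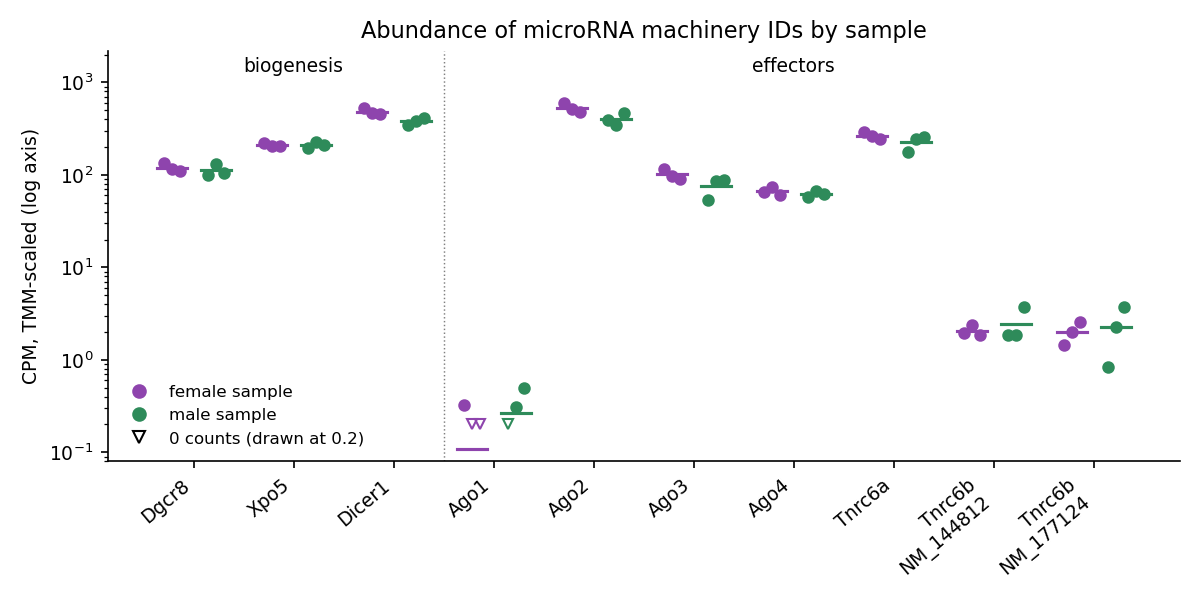
Points give CPM (TMM-scaled, log axis) of each member ID in the 3 female and 3 male samples, open triangles mark samples with 0 counts, and bars mark the mean of each sex. The female points lie above all male points for Dicer1, Ago2 and Ago3, and the sexes overlap for every other ID.

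None of the members passed the test of male against female. edgeR's quasi-likelihood F test was fitted over the 13374 IDs that reached 10 counts in any sample, and 9 of the 10 member IDs entered it. An ID was called at an adjusted p under 0.05 (Benjamini-Hochberg), and 0 of the 9 were, beside 0.0299% of all tested IDs. At an unadjusted p under 0.05 there were 3, Dicer1, Ago2 and Ago3, all lower in males, beside 4.82% of all tested IDs in that direction. Of the 7 members with a mean of at least 100 counts, 6 were lower in males, and the median of their log2 fold changes was -0.24. Among all tested IDs with that count, 44.1% were lower in males, 5.82% at an unadjusted p under 0.05, and the median was 0.04.

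This background changed with transcript length. IDs with at least 100 counts whose length lay in the members' range, 3709 to 15595 bases, had a median log2 fold change of -0.08 in the same fit (2766 IDs), whereas shorter ones had a median of 0.13 (4172 IDs). Of the 2766 long ones, 64.5% were lower in males, 11.6% were lower at an unadjusted p under 0.05 and 18.1% were lower without overlap between the sexes. The part of length in the members' differences was not tested beyond a fit with the length trend removed, whose values are given with each member.

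Dicer1, the cytoplasmic RNase III enzyme, was the biogenesis gene with the largest difference. Its gene spans chr12:105925952-105990162 on the minus strand and has 27 exons in a transcript of 9851 bases. Females 1, 2 and 3 gave 3264, 2318 and 4513 counts, against 3374, 2481 and 4130 for males 1, 2 and 3. On the CPM scale these were 529, 463 and 461 in females and 349, 379 and 413 in males. The sexes did not overlap, which was so in this direction for 8.35% of all tested IDs. The means were 484 ± 38.7 CPM in females and 381 ± 32.1 CPM in males, 21.4% lower. The log2 fold change was -0.35 (SE 0.12), and edgeR's unadjusted p of 0.0127 became an adjusted p of 0.347. With the length trend removed it was -0.12. The 4 let-7 matches shown above lie in this mRNA.

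The study selected transcripts that it found differentially expressed (DESeq2 adjusted p under 0.05) for RT-qPCR, and Dicer1 is in its primer list. It also reported enrichment of miRNA-related terms among its female-biased genes. Here Dicer1 was not called in the main fit, but it was in 1 of the alternative fits given below. The listed Dicer1 primers were placed on the annotated transcript. They are given 5' to 3'.
Dicer1 forward: ctcgagatcctgctgcgcaaata
Dicer1 reverse: gaatcactccaggacacgtaa
The search covered only the longest annotated coding transcript of each gene, with the forward primer in sense and the reverse primer in antisense. There the reverse primer matched 1 gene, Dicer1, at chr12:105960313-105960333, in coding exon 8. The forward primer as listed had no full match in these transcripts. Its first 13 bases matched the same exon at chr12:105960404-105960416, 104 bases from its start to the far end of the reverse primer. The RNA-seq counts cover the whole transcript, whereas these matches lie within 1 exon.

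Dgcr8 and Xpo5 showed no such separation of the sexes. Dgcr8, at chr16:18254041-18289342 on the minus strand, had 136, 115 and 110 CPM in females and 99.97, 132 and 106 CPM in males. Male 2 lay near the highest female value, so the groups overlapped, and the log2 fold change was -0.09 (SE 0.14, adjusted p = 0.832 by edgeR), or -0.0063 with the length trend removed. At its 3' end Dgcr8 overlaps Trmt2a on the opposite strand, and how strand was counted is not stated.

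Xpo5, the export receptor, lies at chr17:46339804-46379248 on the plus strand and was the steadiest member. Females had 220, 208 and 205 CPM and males 196, 225 and 213 CPM. The means were 211 ± 7.85 and 211 ± 14.4 CPM, with a log2 fold change of 0.00 (SE 0.12, edgeR adjusted p = 0.996), or 0.054 with the length trend removed. Over the 3 biogenesis genes the median log2 fold change was -0.09.

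The counts of 6 pairs of members were also compared within each sample, where depth and scaling cancel. The p-values of these ratios are from two-sided exact permutation tests, which cannot go below 0.1 with 3 against 3 samples and so cannot reach 0.05. The ratio of Dicer1 to Xpo5 counts was 2.40, 2.23 and 2.24 in females and 1.78, 1.69 and 1.94 in males. All female ratios were above all male ratios, which restates the values of both genes given above and is no separate evidence. The ratio of Dicer1 to Dgcr8 was 3.89, 4.04 and 4.20 in females and 3.49, 2.88 and 3.90 in males, which overlapped (exact permutation p = 0.2).

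Among the effectors, Ago2 and Ago3 had the largest differences, lower in males without overlap. Ago2, the mouse Argonaute known to cut its target, lies apart from its relatives at chr15:72932055-73015377. Its counts were 3695, 2558 and 4686 in females against 3790, 2278 and 4709 in males, equal to 599, 511 and 479 CPM against 392, 348 and 471 CPM. The groups were separated only narrowly, between female 3 and male 3. The means were 529 ± 62.2 CPM and 404 ± 62.3 CPM, 23.7% lower in males. The log2 fold change was -0.39 (SE 0.14), and edgeR's unadjusted p of 0.0154 became an adjusted p of 0.360. With the length trend removed the log2 fold change was -0.20.

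Ago3 and Ago4, which like Ago1 lie side by side on chromosome 4, are given next, and the difference between them was not tested. Ago3 (chr4:126008948-126106800) had 116, 97.7 and 90.9 CPM in females and 53.5, 84.9 and 87.3 CPM in males. Male 1 was far below the other samples, and the remaining males lay just under the lowest female. The log2 fold change was -0.43 (SE 0.18, edgeR unadjusted p = 0.0327, adjusted p = 0.396). Without male 1 it was -0.24, and with the length trend removed it was -0.16. Ago3 has the longest transcript of the 3, 15595 bases, and the annotated Gm17553 overlaps it on the opposite strand.

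Ago4 (chr4:126166785-126210716) had 65.6, 74.3 and 61.0 CPM in females and 58.4, 66.7 and 62.1 CPM in males. The groups overlapped, and the log2 fold change was -0.10 (SE 0.14, adjusted p = 0.809 by edgeR), or 0.064 with the length trend removed. Ago1 (chr4:126112256-126145878) was counted 2, 0 and 0 times in females and 0, 2 and 5 times in males. It never passed 5 counts and was left out by the low-count filter. Tested without that filter it had an edgeR adjusted p of 0.804. Of its 50-base stretches, 1.73% also occur in another gene, against 0.778% for Ago3 and 0.0501% for Ago2.

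The scaffold Tnrc6a, which links Argonaute to the deadenylases, lies at chr7:130267770-130338802. It had 291, 264 and 244 CPM in females and 178, 243 and 254 CPM in males. Male 1 was again the lowest, while male 3 lay inside the female range. The log2 fold change was -0.24 (SE 0.15, adjusted p = 0.532 by edgeR). Without male 1 it was -0.10, and with the length trend removed it was -0.068.

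Tnrc6b (chr15:80590016-80771516) was counted at a small fraction of Tnrc6a. The ID NM_144812 gave counts of 12, 12 and 18 in females against 18, 12 and 37 in males. For NM_177124 they were 9, 10 and 25 in females against 8, 15 and 37 in males. The groups overlapped for both, and the log2 fold changes were 0.28 (SE 0.49) and 0.17 (SE 0.57), with edgeR adjusted p of 0.851 and 0.933. With the length trend removed they were 0.54 and 0.34. Over the 6 tested effector IDs the median log2 fold change was -0.17, and over the 4 with at least 100 counts it was -0.32.

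**Figure D2:**
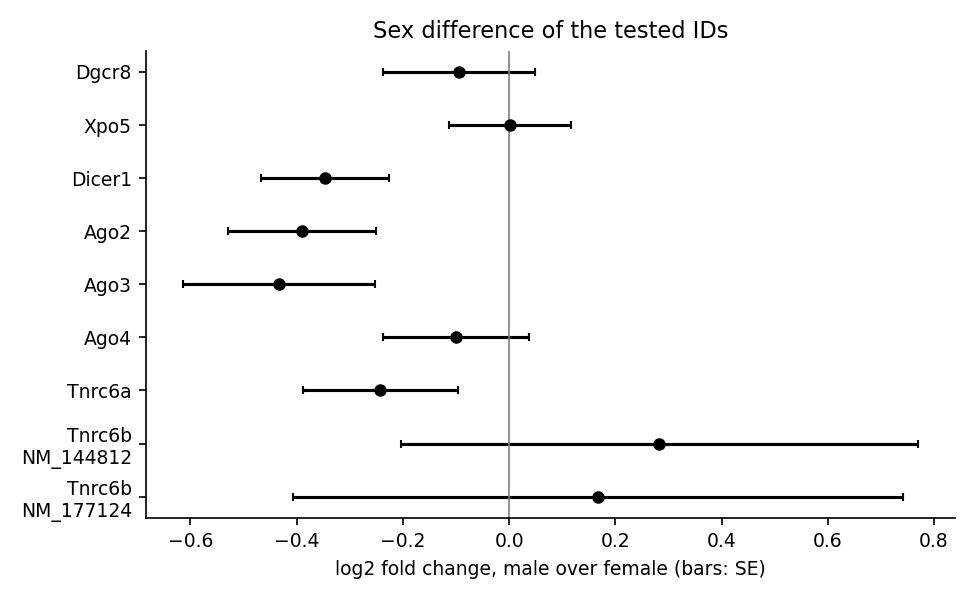
Points give the log2 fold change of male over female for each tested member ID from the edgeR fit, with bars of 1 SE on each side. Dicer1, Ago2 and Ago3 lie farthest to the left, at -0.35, -0.39 and -0.43, Xpo5 lies at 0.00, and the widest bars belong to the Tnrc6b IDs.

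The counts of the effectors were compared with each other in the same way. The ratio of Ago2 to Ago3 counts was 5.17, 5.23 and 5.27 in females, whereas in males it was 7.33, 4.10 and 5.40. The female ratios lay inside the male range (two-sided exact permutation p = 0.7). The ratio of Ago2 to Ago4 was 9.12, 6.88 and 7.85 in females and 6.72, 5.22 and 7.58 in males (exact permutation p = 0.2). Ago2 to Tnrc6a gave 2.06, 1.93 and 1.96 in females and 2.205, 1.43 and 1.86 in males (exact permutation p = 0.7). The ratio of Dicer1 to Ago2, 0.883 to 0.963 in females and 0.877 to 1.09 in males, overlapped as well (exact permutation p = 0.9).

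**Figure D3:**
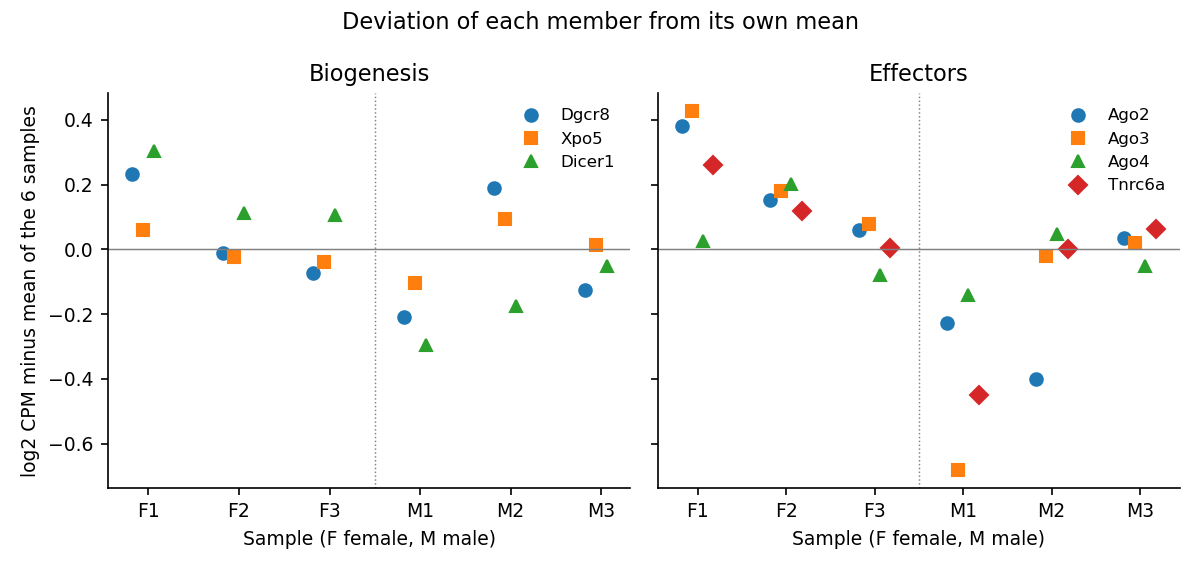
Points give the log2 CPM of the 7 well-counted members in each of the 6 samples, minus the member's own mean, with biogenesis genes in the left panel and effectors in the right. Male 1 holds the lowest value of all 7 except Ago2, which is lowest in male 2.

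Averaged over the 4 well-counted effectors, these centred log2 CPM profiles were 0.273, 0.164 and 0.0149 in females 1, 2 and 3 and -0.375, -0.0929 and 0.0164 in males 1, 2 and 3. Male 3 was thus nearly level with female 3. For the 3 biogenesis genes they were 0.198, 0.0258 and -0.00252 in females and -0.202, 0.0352 and -0.0545 in males, a narrower range with the same samples at its ends. The medians over all 7231 tested IDs with at least 100 counts were -0.033, -0.026 and 0.023 in females and 0.089, 0.017 and -0.0042 in males.

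The IDs most like Dicer1 and Ago2 across the 6 samples were found by the root mean square (RMS) difference of centred log2 CPM, over 7230 IDs with at least 100 counts. For Dicer1 they were Cdk6 (RMS 0.019), a cell cycle kinase, Ddr2 (0.037), a collagen receptor, and Arid2 (0.037), a chromatin remodelling subunit, against a median of 0.284 over all IDs compared. For Ago2 they were Brpf3 (0.044), Dock4 (0.045) and Tmem131 (0.051), against a median of 0.324. Ago2 ranked 236 and Tnrc6a 283 in likeness to Dicer1, and Dicer1 ranked 110 in likeness to Ago2. The other well-counted members ranked 1212 to 1379 in likeness to Dicer1 and 872 to 2329 in likeness to Ago2. Many other IDs therefore varied over these samples much as Dicer1 and Ago2 did.

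The other genes of the pathway were described by lists written for this purpose, 63 genes in 6 steps. IDs were matched for 54 of the genes, 60 IDs in all, and 46 of these were tested. None was called by edgeR at an adjusted p under 0.05. At an unadjusted p under 0.05 there were 9, of which 5 were higher in males, beside 6.68% of all tested IDs, and 4 were lower, beside 4.82%. The median log2 fold change of the 46 was -0.03, against -0.01 for all tested IDs.

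Cofactors of nuclear processing included 10 tested IDs, with 5 higher in each sex. Ran, the GTPase that Xpo5 needs for export, had the only unadjusted p under 0.05 among them, with 235 ± 13.4 CPM in females and 288 ± 45.3 CPM in males (log2 fold change 0.29, SE 0.13, edgeR adjusted p = 0.431). The RNA helicase Ddx17, a Drosha cofactor, was named after its values were seen, since its IDs were called under alternatives. NM_152806 had 126, 89.7 and 66.6 CPM in females and 25.7, 71.9 and 77.2 CPM in males, which overlapped, with a log2 fold change of -0.69 (SE 0.33, edgeR adjusted p = 0.437). It was called with no low-count filter (adjusted p = 0.00544), by DESeq2 with 1 RUVr factor (3.5e-05) and by edgeR with 1 or 2 RUVr factors (0.0207 and 0.00571), RUVr factors being estimates of unwanted variation taken from the residuals of a first fit. Without male 1 its log2 fold change was -0.33. NM_199079 (-0.38, SE 0.30, edgeR adjusted p = 0.636) was called in 2 of these fits, DESeq2 with 1 factor and edgeR with 2, and without male 1 its log2 fold change was -0.028.

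The tested partners of Dicer were Prkra and Tarbp2. Prkra (PACT) had 79.7 ± 5.09 CPM in females and 101 ± 9.95 CPM in males without overlap, as 8.70% of all tested IDs had (0.34 on the log2 scale, SE 0.13, edgeR adjusted p = 0.379). Tarbp2 (TRBP), at 7 to 34 counts in each sample, differed by 0.21 on the log2 scale (SE 0.51, edgeR adjusted p = 0.899), and by -0.023 without female 2.

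Of the genes that control let-7 precursors and add tails to them, 6 of 7 tested IDs had lower values in males, beside 51.0% of all tested IDs. Only Tut4 among them had an unadjusted p under 0.05, and Lin28a, Tent2 and Trim71 averaged 5.83, 14.8 and 17.2 counts. The count of 6 depended on the setting, since Lin28b, Trim71 and Tut7 changed sign under at least 1 alternative each. Tut4, a uridylyl transferase that tails the let-7 precursor, had 485 ± 62.0 CPM in females and 335 ± 17.3 CPM in males without overlap. On the log2 scale the difference was -0.53 (SE 0.13, edgeR adjusted p = 0.338), or -0.39 with the length trend and -0.32 with the length and GC trends removed. DESeq2, which called 0.800% of all tested IDs, gave it an adjusted p of 0.0177, and edgeR called it too when no low-count filter was used, where 1.18% of all IDs were called. Lin28b, the let-7 precursor-binding protein, had 23.1 CPM in females and 21.3 CPM in males (log2 fold change -0.12, SE 0.27). Its relative Lin28a was counted 1 to 13 times, and its difference of -1.70 on the log2 scale was uncertain (SE 0.86, edgeR adjusted p = 0.460).

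Partners of the silencing complex and loading factors gave 11 tested IDs, 7 of them higher in males. Fxr2, an RNA-binding relative of the fragile X protein, had 129 ± 27.7 CPM in females and 178 ± 12.5 CPM in males (0.46 on the log2 scale, SE 0.15, edgeR adjusted p = 0.341), and it was called by edgeR with 2 RUVr factors (adjusted p = 0.0296). Limd1, an Argonaute-binding LIM protein, had 158 ± 17.7 and 192 ± 11.5 CPM (0.27 on the log2 scale, SE 0.12, edgeR adjusted p = 0.431). Tnrc6c, the remaining GW182 paralog, had 450 ± 51.5 CPM in females and 405 ± 64.8 CPM in males, with a log2 fold change of -0.15 (SE 0.14, edgeR adjusted p = 0.694), or 0.051 with the length trend removed.

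Downstream of the silencing complex, deadenylation gave 9 tested IDs, 5 of them lower in males. Cnot3, a subunit of the CCR4-NOT deadenylase, had 92.4 ± 15.1 CPM in females and 63.3 ± 3.14 CPM in males without overlap (-0.54 on the log2 scale, SE 0.15, edgeR adjusted p = 0.338, DESeq2 adjusted p = 0.0487). Tut4 and Cnot3 were also called by DESeq2 with 1 RUVr factor and by edgeR with 2. Pabpc1, the poly(A)-binding protein, had 1080 ± 234 and 680 ± 293 CPM, with male 2 at 403 CPM (-0.67 on the log2 scale, SE 0.25, edgeR adjusted p = 0.378). Without male 1 its log2 fold change was -1.04 and it was called by edgeR (adjusted p = 0.0269), as it was with no low-count filter (adjusted p = 0.00185) and with 2 RUVr factors (adjusted p = 0.0346). Without male 2 the log2 fold change was -0.39 and it was not called (edgeR adjusted p = 0.577). Decapping and decay gave 7 tested IDs, 4 lower in males. Patl1, a decapping activator, had 120 ± 23.5 and 84.6 ± 13.4 CPM (-0.50, SE 0.17, edgeR adjusted p = 0.344), while Lsm1, a part of the ring that binds deadenylated mRNA, had 37.0 ± 1.93 and 48.5 ± 8.84 CPM (0.39, SE 0.17, edgeR adjusted p = 0.403).

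The low counts of Ago1 and Tnrc6b went with the number of curated RefSeq transcripts of the gene. Ago1 had 4 such transcripts and Tnrc6b and Drosha had 2 each, whereas every member with at least 100 counts had 1. Whether genes with several transcripts more often lack an ID, as Drosha did, was not tested. Across all mRNA IDs, those of genes with 1 curated transcript had a median of 121 counts (11455 IDs), and 30.9% of them averaged under 10 counts. With 2 transcripts the median was 3.50 counts (4016 IDs) and 66.2% averaged under 10. With 3 or more the median was 3.00 counts (4081 IDs) and 72.7% averaged under 10. The same held in the pathway lists, where 25 of 28 IDs of genes with 1 transcript reached a mean of 100 counts and 8 of 32 IDs of the other genes did. How reads shared by several transcripts were counted is not stated, so the values of Ago1 and Tnrc6b are uncertain as levels of the gene, as are those of Tut4 and Ddx17 (4 curated transcripts each) and Tarbp2 (2).

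**Figure D4:**
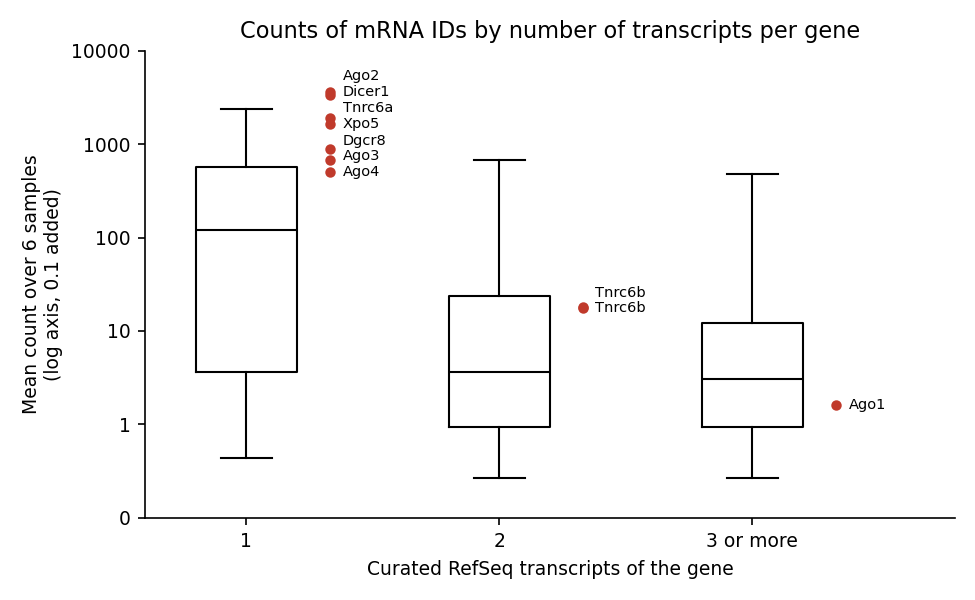
The plot shows mean counts over the 6 samples (log axis) for mRNA IDs grouped by the number of curated RefSeq transcripts of the gene, with boxes for the quartiles, a line at the median, whiskers to the 5th and 95th percentiles and red points for the members. Medians are 121, 3.50 and 3.00 counts for 1, 2 and 3 or more transcripts, and the Ago1 and Tnrc6b IDs lie among the low ones.

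No marker ID was called by edgeR, but the sums of 3 of the 10 lists did not overlap between the sexes, and these are set beside the lower Dicer1, Ago2 and Ago3 of males. The 6 cartilage genes had 8 IDs and summed to 343 to 473 CPM in females and 146 to 308 CPM in males. Of those IDs 6 were higher in females and 0 were called by edgeR, and Acan, a defining gene of cartilage, had 0 to 2 counts, though it too has 2 curated transcripts. Endothelial markers summed to 620 to 660 CPM in females and 523 to 597 CPM in males, with 3 of 4 IDs higher in females and Cldn5 higher in males. Choroid plexus markers summed to 450 to 546 CPM in females and 567 to 740 CPM in males, a sum made mostly of Ttr, while 3 of the 5 IDs were higher in females. Male 1 had the most IDs at 0 as well as the lowest Dicer1 and Ago3. The part of these tissues and of male 1 in the members' differences was not tested, beyond the values without male 1, which were -0.29 for Dicer1, -0.37 for Ago2 and -0.24 for Ago3 on the log2 scale.

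The direction of Dicer1, Ago2 and Ago3 did not depend on the settings tried. All 3 were lower in males in the main fit and in each of 19 alternatives. Dicer1 had log2 fold changes of -0.40 to -0.09 and adjusted p of 0.0377 to 0.843. It was called in 1 of the 20 fits, DESeq2 with 1 RUVr factor, where 2.77% of all tested IDs were called. Of the fits made here this is the nearest in kind to the study's own test, whose number of factors is not stated. Ago3 was called in that fit (adjusted p = 0.0277) and by edgeR with 2 RUVr factors (adjusted p = 0.0408), where 3.61% of all tested IDs were. With edgeR and 1 RUVr factor, which called 0.269% of all tested IDs, 0 members were called. Ago2 ranged from -0.51 to -0.20 and was called in none of the 20. When the length trend was removed, none of the members had an unadjusted p under 0.05, and the same was so without female 1.

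**Figure D5:**
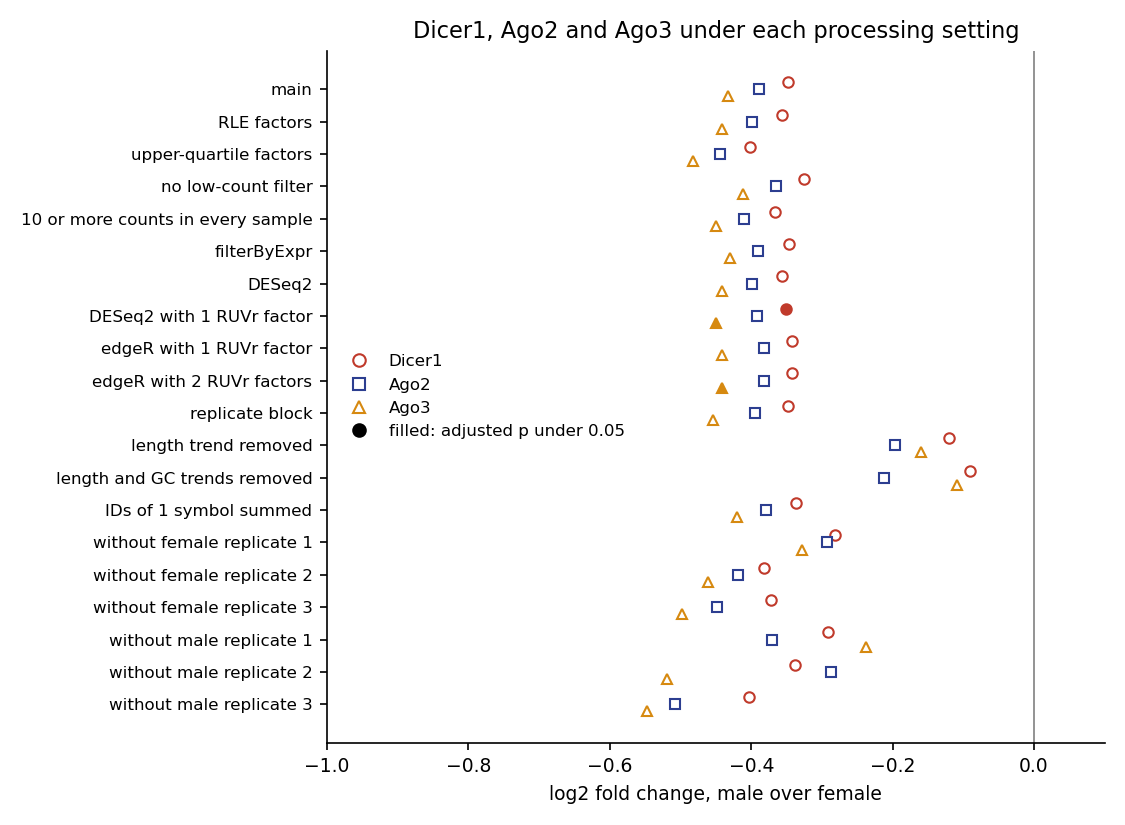
The plot gives the log2 fold change (male over female) of Dicer1, Ago2 and Ago3 in the main fit and under 19 alternatives, filled where the adjusted p was under 0.05. All points lie below 0, and those nearest to 0 belong to the fits with length, or length and GC, trends removed, at -0.21 to -0.09.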

How the data were processed

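Stranded total RNA libraries were sequenced from both ends. Per the study's methods, the authors trimmed reads with Trimmomatic 0.32, aligned them to mm9 (NCBIM37) with TopHat2 2.1.1, assembled transcripts with Cufflinks 2.2.1 and assigned reads with featureCounts 1.5.1. The values deposited by the authors are raw counts per RefSeq transcript ID, 1 table per sample. The treatment of strand and of reads shared by several transcripts is not given in the sources used here.

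Symbols came from a RefSeq gene table, which named 23355 of 23485 IDs. Positions, lengths and seed matches came from the longest annotated NCBIM37 transcript, and length was known for 19759 IDs. Male and female samples were compared with edgeR 4.0.16 (TMM factors 0.940 to 1.03, quasi-likelihood F test, Benjamini-Hochberg adjustment, R 4.3.3) on the IDs that reached 10 counts in any sample. Positive log2 fold changes are higher in males, and SE is the fold change divided by the root of F. The study used DESeq2 with RUVr and does not state the number of factors. DESeq2 1.42.0 alone and with 1 RUVr factor, edgeR with 1 or 2, other scalings and filters, trends in length and GC, a replicate block and omission of each sample were tried as alternatives. On simulated counts of 13374 IDs for this comparison the test recovered 92% of changes of 1 and 100% of changes of 2 on the log2 scale, which are larger than the members' differences, and called 16 unchanged IDs. The changed IDs all had a mean of at least 100 counts, so these shares do not cover low-count IDs such as those of Tnrc6b. Counts were drawn for each ID separately, without the length trend of the data.

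The members, lists and tests were chosen with earlier results of these data known. All member IDs are named. In the other pathway lists Tarbp2, Prkra, Lin28a, Lin28b and Tnrc6c are always named, with up to 2 IDs per list and direction of smallest unadjusted p under 0.05. Tests over single ratios were exact permutation tests with SciPy 1.17.1.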

Additional observations from a re-analysis of the deposited data

How the results depend on the processing

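With 3 samples per sex, a log2 change as small as those of Dicer1, Ago2 and Ago3 had an SE of 0.12 to 0.18, and IDs under about 10 counts carry little information. No member was called except under DESeq2 with 1 RUVr factor (2 members) and edgeR with 2 RUVr factors (1 member). The 3 members at an unadjusted p under 0.05 became 0 with the length trend or the length and GC trends removed, and 0 to 3 when samples were left out in turn. The median of -0.24 over the 7 well-counted members was the value of Tnrc6a. That member had -0.10 without male 1 and -0.068 with the length trend removed. The median log2 fold change of the effectors became -0.0016 with the length trend removed and 0.034 with both trends removed, where that of the biogenesis genes was 0.028. The effector medians cover 6 IDs, including those of Tnrc6b, which averaged 18.2 and 17.3 counts. With the length trend removed the well-counted Ago2, Ago3, Ago4 and Tnrc6a had -0.20, -0.16, 0.064 and -0.068. With both trends removed they had -0.21, -0.11, 0.10 and -0.032, and without male 1 -0.37, -0.24, -0.056 and -0.10. Over left-out samples the median ranged from -0.36 to -0.078 for effectors and from -0.21 to 0.0022 for biogenesis.

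Of the IDs of the other pathway genes 3 were called with no low-count filter, 2 by DESeq2, 4 by DESeq2 with 1 RUVr factor, 1 by edgeR with 1 factor, 6 by edgeR with 2 factors and 0 to 1 over left-out samples. At an unadjusted p under 0.05 there were 14 with 2 factors and 3 to 12 over left-out samples. Over all tested IDs the 4 calls became 276 with no filter, 1 with 10 or more counts in every sample, 107 with DESeq2, 370 with DESeq2 and 1 factor, 36 and 483 with edgeR and 1 or 2 factors, and 4 to 51 over left-out samples. Of the 46 tested pathway IDs 17 changed sign under at least 1 alternative, among them those of Tarbp2, Lin28b, Trim71, Tut7 and Tnrc6c, so the counts of higher and lower IDs per list depend on the setting. The cause of these shifts was not tested.

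Members near 0 changed sign, none of them called. The log2 fold change of Xpo5 was -0.0068 with RLE factors, -0.052 with upper-quartile factors, -0.018 with 10 or more counts in every sample, -0.0070 with DESeq2 and -0.0038 with DESeq2 and 1 factor. NM_177124 of Tnrc6b gave -0.055 with DESeq2 and 1 factor and -0.026 with edgeR and 1 factor. Ago4 gave 0.064 with the length trend removed and 0.10 with both trends removed, where Dgcr8 gave 0.028. Over left-out samples Xpo5 ranged from -0.038 to 0.051, Dgcr8 from -0.21 to 0.0022, Ago4 from -0.15 to -0.024, NM_144812 of Tnrc6b from -0.14 to 0.46 and NM_177124 from -0.40 to 0.57.

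The shared replicate numbers were not used as pairs in the main fit. Deviations of same-numbered samples from the mean of their sex correlated at -0.28, -0.02 and -0.25 over 7231 IDs. The highest values for differently numbered samples were 0.27 (female 1 and male 3) and 0.24 (female 3 and male 1). Deviations within a sex cancel out, so these correlations constrain each other and cannot tell whether any samples were paired. With the replicate block, 0 members were called, 3 had an unadjusted p under 0.05, the medians were -0.10 for biogenesis and -0.18 for effectors, and 4 of all tested IDs were called, against 4 without it. The block changed no member's call, and edgeR's adjusted p of Dicer1 was 0.580.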
